A study of Cucumis sativus with 6 samples.

Results

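The genes described here are the lipoxygenases of cucumber (Cucumis sativus) that the authors listed as differing between Cshec2 mutant and wild type female buds. They were taken from the deposited table by their protein descriptions, as every gene whose Swiss-Prot or NR description contains the word lipoxygenase. The rule found 8 of the 1589 listed genes. By their Swiss-Prot description 4 are linoleate 9S-lipoxygenases and 4 are chloroplast lipoxygenases of the lipoxygenase 2 type. No member had another description (0 genes), and all 8 also carry the Pfam domain name Lipoxygenase, which no other listed gene carries.

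RNA was sequenced from female buds collected 7 days before anthesis, the opening of the flower. There were 3 libraries from wild type plants and 3 from plants with the genotype Cshec2-/-, named for the gene CsHEC2. The series title links that gene to fruit warts and to the making of cytokinin. The design text calls the libraries biological replicates and refers to mutant lines, without saying how many lines or plants each library holds. Every gene in the table had been selected by the authors for a difference between these same libraries, so a test of a listed gene on them is not independent of that selection.

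Lipoxygenases add oxygen to polyunsaturated fatty acids such as linoleic and linolenic acid and give fatty acid hydroperoxides, the starting point of the plant oxylipins. The 9S type attacks the chain at its ninth carbon, and its products lead to other oxylipins than jasmonate, among them the aldehydes that give cucumber fruit its smell. Lipoxygenases of the chloroplast lipoxygenase 2 type oxygenate the chain at another carbon, and in Arabidopsis leaves their products feed the synthesis of the wound hormone jasmonate. In flowers, jasmonate is best known for its role in stamen and petal maturation in Arabidopsis.

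All 8 lipoxygenase genes were lower in the mutant, and the 3 mutant values lay below the 3 wild type values for each of them. The same separation held for 75.7% of all listed genes, so it is not particular to lipoxygenases. The 4 chloroplast type genes lay 2.97-fold to 5.15-fold higher in wild type by the ratio of means, and their wild type libraries spread by 1.09-fold to 1.69-fold. The 4 genes of the 9S type lay 7.05-fold to 25.3-fold higher in wild type by the same ratio, but most of that height came from wild type libraries 2 and 3. In wild type library 1 the 9S genes lay only 2.10-fold to 2.93-fold above the mutant mean. The descriptions and identifiers split the members in the same way, since the 9S genes all begin with Csa2G and the chloroplast genes all begin with Csa4G.

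The libraries differed in ways that touch these results. The deposited values of the 1589 genes summed to 41126, 44182 and 59342 in wild type libraries 1 to 3, and to between 23592 and 24173 in the mutant libraries. The unit of the values is not named in the header, so the read depth is unknown. Of the listed genes, 3 are described as CRABS CLAW or YABBY proteins, regulators of carpel and lateral organ growth, and all 3 had values above 0 in every library, while 0 listed genes matched the male organ words. Unlike the lipoxygenases, these 3 were higher in the mutant, with no overlap between groups, as were 18.3% of all listed genes. By Swiss-Prot they are Csa5G606780 (CRABS CLAW), Csa5G160210 (YABBY 1) and Csa2G006820 (YABBY 5), while NR describes Csa5G160210 as YABBY 5-like. In that order the log2 changes were 0.87, 0.92 and 0.63, with limma adjusted p from 0.00255 to 0.0182. They were 1.45 to 1.84 after the libraries were scaled by the median of ratios. That scaling raised the median log2 change over all listed genes from -0.77 to -0.02, so the larger values follow in part from the scaling. The part of these 3 genes in the lipoxygenase results was not tested. No listed gene is described as HECATE (0 genes), so the mutated gene was not analysed here.

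**Figure D1:**
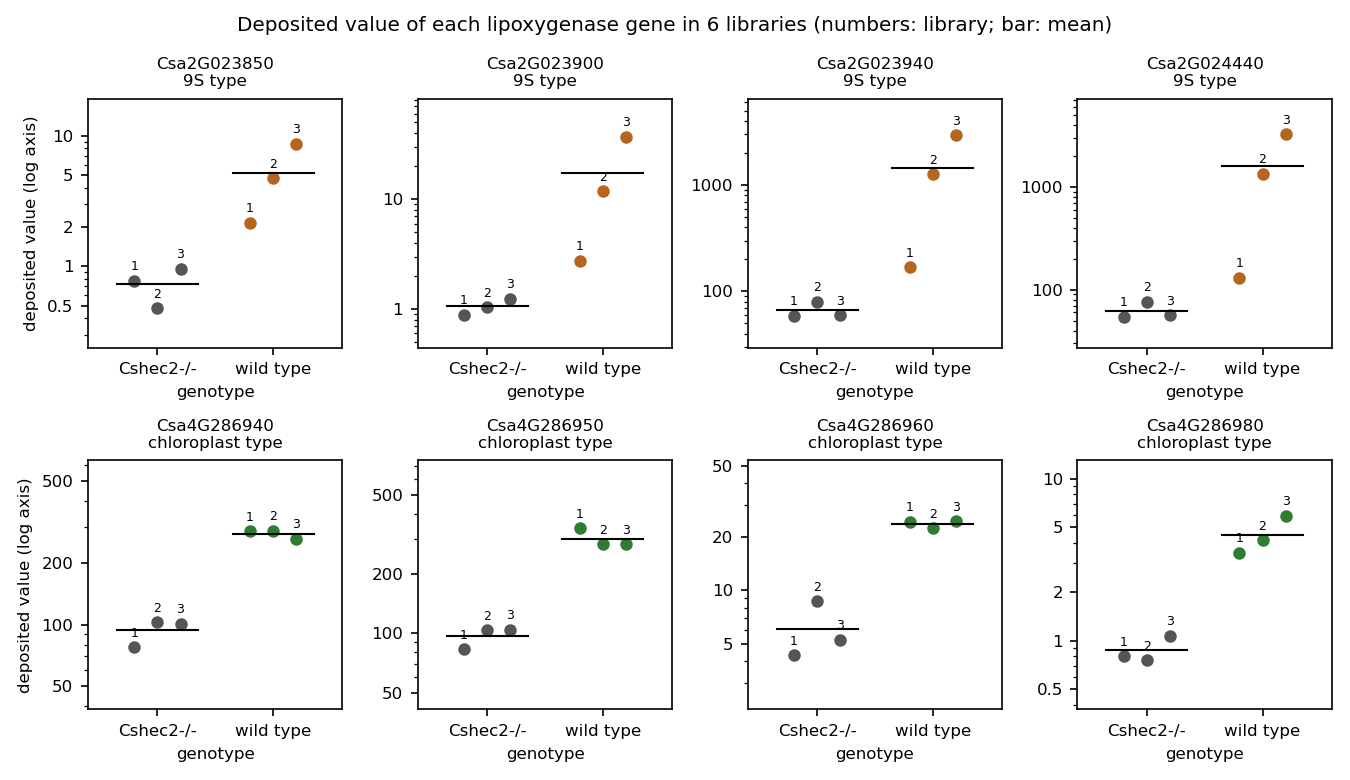
Deposited value (log axis) of each of the 8 lipoxygenase genes in the 3 Cshec2-/- and 3 wild type libraries, with library numbers beside the points and a bar at each mean. In all 8 panels the mutant points lie below the wild type points, as they do for 75.7% of all listed genes. In the upper row (9S type) the wild type points are spread by 4.02-fold to 24.9-fold, against 1.09-fold to 1.69-fold in the lower row (chloroplast type).

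The chloroplast type genes are described first. Csa4G286950, described as lipoxygenase 2 of Arabidopsis, measured 82.7, 104 and 104 in mutant libraries 1 to 3 and 339, 282 and 281 in wild type libraries 1 to 3. The values of the groups were far apart, and the highest wild type library was library 1. Its log2 change, mutant minus wild type on the log2(value + 1) scale, was -1.63 (SE 0.16, limma adjusted p = 0.000878, n = 3 per genotype). Adjusted p-values here are Benjamini-Hochberg values over all 1589 listed genes.

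Csa4G286940, described as lipoxygenase 2.3 of barley, measured 77.5, 103 and 101 in the mutant and 285, 288 and 263 in wild type. Neither group spread by more than 1.32-fold, against a 2.97-fold difference of means. The log2 change was -1.57 (SE 0.16, limma adjusted p = 0.000933). Its values followed those of Csa4G286950 closely, with a ratio of Csa4G286950 to Csa4G286940 between 0.980 and 1.19 in the 6 libraries.

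Csa4G286960, also described as lipoxygenase 2.3, measured 4.31, 8.69 and 5.29 in the mutant and 24.3, 22.3 and 24.4 in wild type. Here the mutant was the less even group, with library 2 highest at 2.02-fold above library 1, and wild type spread by only 1.10-fold. The log2 change was -1.84 (SE 0.24, limma adjusted p = 0.00151).

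Csa4G286980, a further gene described as lipoxygenase 2.3, had low values in all libraries. It measured 0.805, 0.756 and 1.07 in the mutant and 3.50, 4.16 and 5.90 in wild type. It was the chloroplast gene with the widest wild type spread, 1.69-fold, and with the largest ratio of means, 5.15-fold. Its log2 change of -1.54 (SE 0.19, limma adjusted p = 0.00136) is smaller than that ratio because the added 1 weighs on low values, and it was -2.22 with a pseudocount of 0.1.

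The 9S type genes were about as even in the mutant as the chloroplast genes, but not in wild type. Csa2G024440, described as linoleate 9S-lipoxygenase A of tomato, measured 54.6, 76.2 and 56.1 in the mutant and 131, 1341 and 3265 in wild type. The lowest wild type library still lay 1.72-fold above the highest mutant library, but the wild type libraries differed by 24.9-fold among themselves. The log2 change of -3.74 therefore carried an SE of 1.07 (95% interval -6.28 to -1.19, limma adjusted p = 0.0158).

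Csa2G023940, described as probable linoleate 9S-lipoxygenase 5 of potato, measured 59.1, 79.7 and 59.2 in the mutant and 169, 1265 and 2940 in wild type. As in Csa2G024440, mutant library 2 was the highest of its group and wild type library 1 the lowest of its group, with a 17.4-fold spread within wild type. The log2 change was -3.69 (SE 0.95, limma adjusted p = 0.0114). The ratio of Csa2G024440 to Csa2G023940 stayed between 0.777 and 1.11 in the 6 libraries, while the highest library of each gene lay 59.8-fold and 49.7-fold above its lowest. How reads that fit more than 1 such gene were counted is not given in the sources used here, for this pair or for the chloroplast pair, so the separate values of these genes are uncertain.

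Csa2G023900, with the same description as Csa2G023940, measured 0.892, 1.04 and 1.24 in the mutant and 2.75, 11.9 and 37.2 in wild type. Its wild type libraries stood in the same order and spread by 13.5-fold. The log2 change was -2.58 (SE 0.76, limma adjusted p = 0.0169).

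Csa2G023850, described as probable linoleate 9S-lipoxygenase 7 of potato, measured 0.775, 0.476 and 0.957 in the mutant and 2.16, 4.73 and 8.68 in wild type. It had the narrowest wild type spread of the 9S genes, 4.02-fold, which was still wider than that of any chloroplast gene. The log2 change was -1.70 (SE 0.39, limma adjusted p = 0.00798). With a pseudocount of 0.1 it was -2.50, and that of Csa2G023900 was -3.24.

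By limma all 8 members passed an adjusted p of 0.05 as lower in the mutant. Of all listed genes, 74.3% passed as lower and 92.7% passed in either direction, so passing alone says little about lipoxygenases. For the same reason, the separation of the 3 mutant from the 3 wild type values in all 8 members stands beside 75.7% of listed genes with that separation in the lower direction. The median log2 change was -3.14 over the 9S genes and -1.60 over the chloroplast genes, beside -0.77 over all listed genes. In whole buds, fewer cells that express a gene and less RNA per cell cannot be told apart.

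Set against the mutant mean library by library, the classes differed in pattern. In wild type library 1 the folds were 2.10 to 2.93 for the 9S genes and 3.04 to 3.99 for the chloroplast genes, so each 9S gene lay nearer to the mutant than each chloroplast gene did. In library 2 the folds were 6.42 to 21.5 for the 9S genes and 2.91 to 4.74 for the chloroplast genes. In library 3 they were 11.8 to 52.4 and 2.80 to 6.72. Among the 9S genes, Csa2G024440 had the lowest fold in library 1 and the highest in libraries 2 and 3, and Csa2G023850 had the highest in library 1 and the lowest in libraries 2 and 3.

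**Figure D2:**
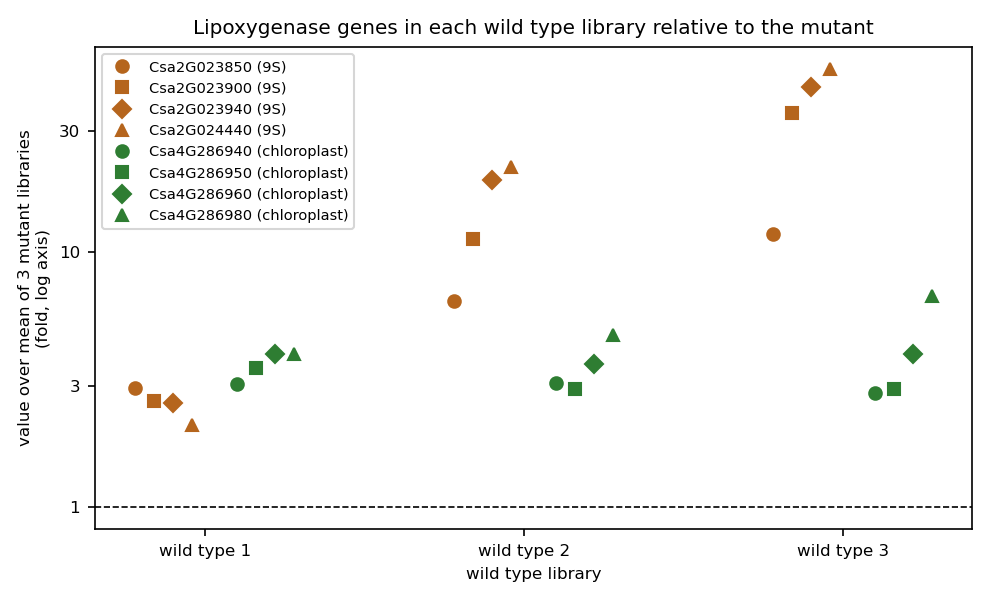
Fold of each wild type library over the mean of the 3 mutant libraries (log axis) for the 4 9S genes (brown) and the 4 chloroplast genes (green), with a dashed line at 1. The 9S genes lie below the chloroplast genes in library 1 and above them in libraries 2 and 3, where Csa2G024440 reaches 21.5-fold and 52.4-fold.

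The mean log2(value + 1) of the 9S genes minus that of the chloroplast genes summarises this in each library. It was -0.62, -0.82 and -0.80 in the mutant libraries and -1.34, 0.92 and 2.02 in wild type libraries 1 to 3. The mutant values were close together and lay between those of wild type library 1 and wild type library 2, so the groups overlapped. Mutant minus wild type was -1.28, with an SD of 0.11 in the mutant and 1.72 in wild type. It was -2.22 without wild type library 1 and -0.54 without wild type library 3, and against wild type library 1 alone it had the opposite sign, 0.59. Because the members were chosen with results of these data known, no p-value is given for it.

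The wild type spread of the 9S genes was wide for the table. The difference in log2(value + 1) between wild type libraries 3 and 1 was 4.63 for Csa2G024440, 4.11 for Csa2G023940, 3.35 for Csa2G023900 and 1.62 for Csa2G023850. In descending order over all 1589 listed genes these stand at places 4, 10, 26 and 103. Over all listed genes the median of that difference was 0.08, and 10% of genes exceeded 1.33. The chloroplast genes ranged from -0.27 to 0.62 around that median. The added 1 lowers the difference for genes with low values, and the deposited values themselves lay 4.02-fold (Csa2G023850) to 24.9-fold (Csa2G024440) higher in library 3 than in library 1. On the same deposited values library 2 lay above library 1 for every 9S gene, by 2.19-fold to 10.2-fold, and its ratio to library 1 was 0.831 to 1.19 for the chloroplast genes.

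**Figure D3:**
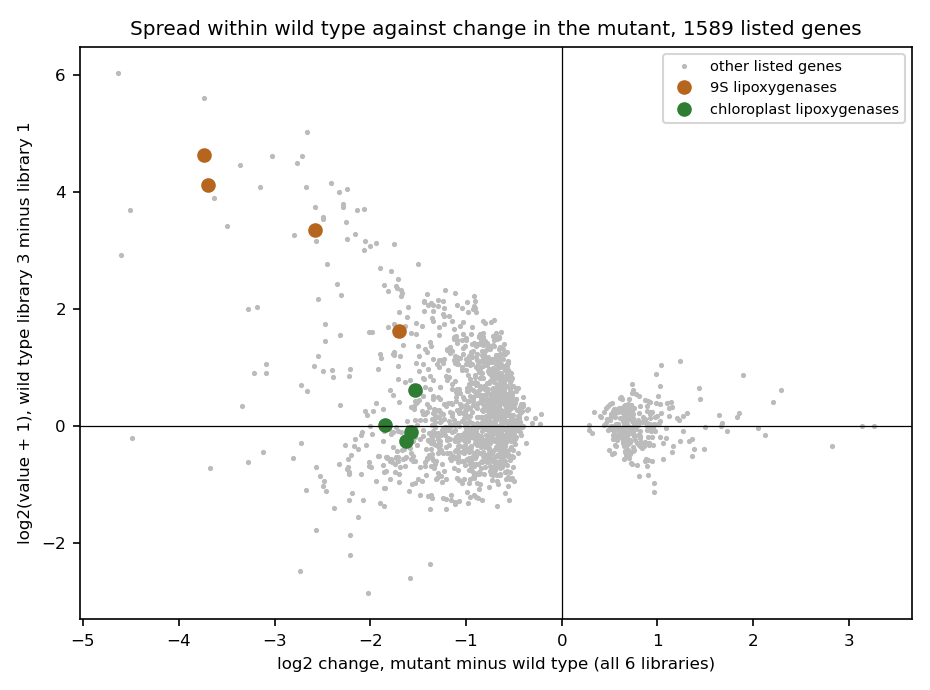
Difference in log2(value + 1), library 3 minus library 1 of wild type, against the log2 change, mutant minus wild type, for the 1589 listed genes (grey), with the 4 9S genes in brown and the 4 chloroplast genes in green. The 9S genes lie at differences of 1.62 to 4.63 and the chloroplast genes at -0.27 to 0.62, while both classes lie at negative log2 changes. The axes share the values of wild type libraries 1 and 3.

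Csa2G024440 and Csa2G023940 also took a visible part of the summed values. All 4 9S genes together held between 0.486% and 0.654% of the sum over listed genes in the mutant libraries, and 0.741%, 5.94% and 10.5% in wild type libraries 1 to 3. The chloroplast genes held 0.700% to 0.896% in the mutant and 1.58%, 1.35% and 0.967% in wild type. Between wild type libraries 1 and 3 the sum rose by 18216, of which 5946, or 32.6%, lay in the 4 9S genes. The header does not say whether values are per transcript length, so these are shares of summed values and not of transcripts.

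The log2 changes of the 9S genes depended on which wild type libraries entered the fit. Without wild type library 1 they were -5.06 for Csa2G024440, -4.86 for Csa2G023940, -3.43 for Csa2G023900 and -2.11 for Csa2G023850, with limma adjusted p between 0.000188 and 0.000818. Without wild type library 3 they were -2.75, -2.80, -1.76 and -1.30 in the same order. Against wild type library 1 alone they were -1.08, -1.35, -0.87 and -0.87. That fit takes its spread from the 3 mutant libraries and assumes the same spread for the lone wild type library. Leaving out wild type library 2 ended the call of Csa2G024440 (limma adjusted p = 0.0536), and leaving out mutant library 1 ended that of Csa2G023900 (limma adjusted p = 0.0516).

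The chloroplast genes moved little under the same changes. Their log2 changes lay between -1.82 and -1.54 without wild type library 1, between -1.82 and -1.36 without wild type library 3 and between -1.88 and -1.26 against wild type library 1 alone. Each of the 4 passed in all 6 fits that left out a library, with limma adjusted p of at most 0.00967, while 51.8% to 77.8% of listed genes passed as lower in those fits.

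Median-of-ratios scaling, which sets the median listed gene near no change, moved the median log2 change over the table from -0.77 to -0.02. After it 14.2% of listed genes passed as lower and 18.4% as higher. All 4 chloroplast genes still passed, with log2 changes from -0.996 to -0.65 (limma adjusted p from 0.00242 to 0.0383). Of the 9S genes, Csa2G023850 (log2 change -1.12, limma adjusted p = 0.0327) and Csa2G023940 (-2.77, limma adjusted p = 0.048) passed, and Csa2G023900 (-1.91, limma adjusted p = 0.0666) and Csa2G024440 (-2.81, limma adjusted p = 0.0727) did not. The direction was lower for all 8 in this scaling too.

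For 3 of the 9S genes the log2 fold changes in the authors' deposited table are smaller in size than for any chloroplast gene. In the authors' deposited table the chloroplast genes have log2 fold changes from -1.75 (Csa4G286960) to -1.55 (Csa4G286940), and the log2 ratios of the means of their deposited values are -2.36 to -1.57. Of the 9S genes, Csa2G024440 has -0.89 in the authors' deposited table, where the log2 ratio of means is -4.66. The same pair of values is -1.01 and -4.46 for Csa2G023940, -1.001 and -4.03 for Csa2G023900, and -1.73 and -2.82 for Csa2G023850, with the authors' deposited table first. Over the 1586 genes with means above 0 and a fold change in the authors' deposited table, the median absolute gap between the values was 0.13, and 47 genes had a gap above 2. In order of that gap Csa2G024440, Csa2G023940 and Csa2G023900 stand at places 7, 9 and 16. The FDR in the authors' deposited table is 7.05e-30 for Csa4G286940 and 3.53e-28 for Csa4G286950, against 0.013 for Csa2G024440 and 0.00536 for Csa2G023940. The cause of the gaps was not tested.

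**Figure D4:**
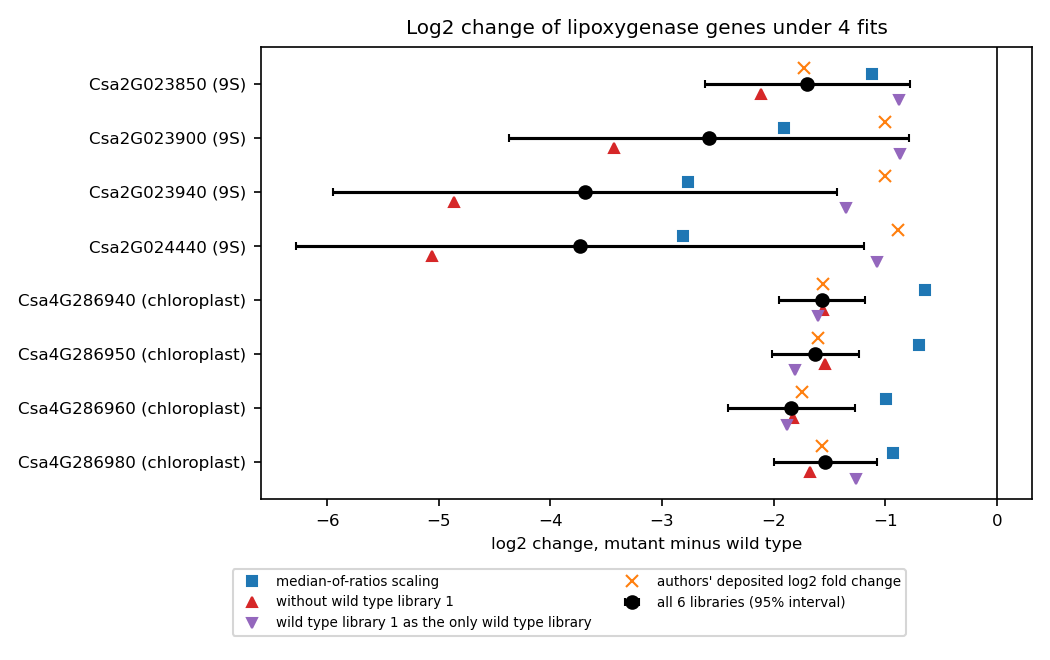
Log2 change, mutant minus wild type, of the 8 lipoxygenase genes with all 6 libraries (black, 95% interval), after median-of-ratios scaling (squares), without wild type library 1 (triangles up), against wild type library 1 alone (triangles down), and as given in the authors' deposited table (crosses). The estimates for Csa2G024440 run from -5.06 to -0.89, and those for Csa4G286940 from -1.60 to -0.65.

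The members of each class also stand together in the numbering of the gene identifiers. Csa4G286940, Csa4G286950, Csa4G286960 and Csa4G286980 fall in a run of identifiers in steps of 10 in which all 5 numbers are listed. The fifth, Csa4G286970, has no Swiss-Prot or Pfam description and is no member. It measured 0.620, 1.23 and 0.850 in the mutant and 3.07, 5.30 and 6.02 in wild type. Its log2 change was -1.58 (SE 0.24, limma adjusted p = 0.00258), and it was chosen for its place in the run after its values were seen. The 4 9S identifiers lie further apart, in steps of 50, 40 and 500, and no other listed identifier falls between the first and the last of them. The identifiers matched no entry of the RefSeq gene table (0 matches), so coordinates and physical distances are not given. The PLAT/LH2 domain name, of a lipid-binding domain found at the start of plant lipoxygenases, is given for Csa4G286940 and Csa4G286960 among the members, and for 6 listed genes in all.

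To see which listed genes behaved most like each class, profiles over the 6 libraries were compared by the root mean square difference of log2(value + 1) after subtracting the mean of each gene. Candidates were the 1461 described genes other than lipoxygenases with a mean of at least 1 over the 6 libraries. For the 9S class the nearest was Csa6G517220, described as stem-specific protein TSJT1, at a difference of 0.17. It measured 6.64, 10.7 and 7.86 in the mutant and 16.3, 90.1 and 166 in wild type. The next was Csa1G569400, described as a dormancy-associated protein homolog, at 0.21, with 25.8, 25.7 and 24.2 in the mutant and 37.5, 194 and 514 in wild type. Csa6G382950, described as NAC domain-containing protein 2, Csa5G224130, described as cytochrome P450 714A1, and the uncharacterised Csa6G141350 followed at 0.23, 0.23 and 0.25. These 5 were picked for their likeness to the 9S profile over the same 6 libraries, so the order of their wild type libraries is fixed by that choice.

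The 9S members themselves lay 0.23 to 0.84 from their own mean profile, and 65 of the 1461 genes, or 4.45%, were no farther from it than the farthest member. For the chloroplast class the members lay 0.08 to 0.21 from their mean profile, and 42 genes, or 2.87%, were no farther than the farthest. The nearest were the uncharacterised Csa2G382480 at 0.11, Csa3G826650, described as aquaporin NIP2-1, a membrane channel, at 0.11, and Csa5G576580, described as a leucine-rich repeat extensin-like protein, at 0.11. Csa2G146400, described as UDP-glucuronate 4-epimerase 6, which makes a building block of pectin, and Csa6G361260, described as an alcohol dehydrogenase-like protein, followed at 0.12 each. Csa3G826650 measured 23.3, 28.3 and 30.3 in the mutant and 104, 86.4 and 96.8 in wild type. Csa6G361260 measured 9.02, 11.9 and 8.94 in the mutant and 37.3, 35.6 and 34.7 in wild type. The even wild type values of both genes likewise follow from how they were picked.

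Other steps of the oxylipin and jasmonate route were looked up by keyword in the same descriptions. Kinds of genes that respond to wounding or jasmonate in other plants were looked up as well. The keywords matched 23 listed genes besides the lipoxygenases, and not every match is an enzyme of the route. Of the 23, 21 passed as lower, 1 as higher and 1 did not pass, with a median log2 change of -1.02. Of all listed genes, 74.3% passed as lower and 18.4% as higher. After median-of-ratios scaling 7 of the 23 were lower and 1 was higher, beside 14.2% and 18.4% of all listed genes. No listed gene is described as an allene oxide synthase or cyclase, a hydroperoxide lyase, a divinyl ether synthase, a fatty acid desaturase, or a TIFY, JAZ or MYC2 protein of jasmonate signalling (0 genes each). Since the table holds selected genes alone, this says nothing about their expression.

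Upstream of lipoxygenases, lipases release fatty acids from membrane lipids, and 9 listed genes are described as patatin-like lipases or phospholipases A1. Of these, 7 passed as lower and 1 as higher, shares close to the 74.3% and 18.4% of all listed genes. Csa2G360570, described as patatin-like protein 2, measured 0.978, 2.01 and 2.36 in the mutant and 23.4, 16.0 and 15.5 in wild type. Its groups were far apart, and unlike the 9S genes it was highest in wild type library 1. It fell by 2.81 on the log2 scale (SE 0.27, limma adjusted p = 0.000848). Csa2G292840, described as patatin-like protein 1, had a mutant mean of 1.02 ± 0.145 and a wild type mean of 4.29 ± 0.625 (SD over 3 libraries, as for the means that follow). Csa1G614650, described as phospholipase A1-Igamma3 of the chloroplast, measured 1.22 ± 0.0127 against 4.63 ± 0.539. These 3 genes passed as lower after median-of-ratios scaling as well, as did 14.2% of all listed genes.

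Csa2G292850 and Csa2G293360, both described as patatin-like protein 3, measured 1.02 ± 0.148 against 2.65 ± 0.597 and 0.951 ± 0.196 against 2.58 ± 0.475. Csa6G526340, described as patatin-like protein 7 by Swiss-Prot and as patatin-like protein 3 by NR, measured 8.71 ± 0.369 against 18.7 ± 2.47. Csa6G405300, also patatin-like protein 7 by Swiss-Prot, was the member that rose, to 2.26 ± 0.570 from 0.688 ± 0.330 (log2 change 0.95, SE 0.19, limma adjusted p = 0.00548). Its log2 change was 1.45 after median-of-ratios scaling (limma adjusted p = 0.000867). Csa4G639890, described as DAD1, the phospholipase that supplies jasmonate synthesis in Arabidopsis stamens, measured 5.88, 8.56 and 10.5 in the mutant and 14.9, 10.3 and 23.6 in wild type. Its groups overlapped, and it passed narrowly at a log2 change of -0.85 (limma adjusted p = 0.0405). The call ended when wild type library 3, mutant library 1 or mutant library 2 was left out, with limma adjusted p of 0.0881, 0.128 and 0.0838. Csa7G378490, described as phospholipase A1-Igamma2, measured 17.4, 23.2 and 21.3 in the mutant and 22.8, 27.6 and 54.4 in wild type and did not pass (limma adjusted p = 0.0884), but passed without wild type library 1 (limma adjusted p = 0.0209).

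Downstream, 6 genes matched the words for enzymes that use hydroperoxides or related fatty acid products, and all 6 passed as lower, beside 74.3% of all listed genes. Cucumis_sativus_newGene_1386, described as 12-oxophytodienoate reductase 1, measured 16.6, 18.3 and 14.9 in the mutant and 23.1, 57.0 and 50.001 in wild type. As in the 9S lipoxygenases, wild type library 1 was the lowest of its group, but unlike in them library 2 was the highest. The log2 change was -1.24 (SE 0.33, limma adjusted p = 0.0129). Csa1G024920, described as alpha-dioxygenase 2, which oxygenates fatty acids at the alpha carbon and does not use lipoxygenase products, measured 8.98 ± 0.469 in mutant buds against 17.2 ± 3.48 in wild type.

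Csa4G001900, Csa4G001910 and Csa4G001920 are described by NR as bifunctional epoxide hydrolase 2-like, enzymes that open epoxides, and Swiss-Prot describes Csa4G001910 as a proline iminopeptidase. They measured 1.503 ± 0.729 against 5.17 ± 0.731, 4.65 ± 0.762 against 10.2 ± 1.14, and 2.62 ± 0.614 against 4.73 ± 1.28. The call of Csa4G001920 ended when wild type library 3, mutant library 1 or mutant library 3 was left out, with limma adjusted p of 0.0615, 0.0933 and 0.0755. Csa5G606830 matched by spelling alone, since its description is CYP749A22 and not a CYP74 enzyme of oxylipin synthesis, and measured 3.32 ± 0.465 against 5.93 ± 0.419. None of the 6 passed after median-of-ratios scaling (0 genes by limma at an adjusted p of 0.05), beside 14.2% of all listed genes that passed as lower.

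Peroxisomal beta-oxidation shortens the jasmonate precursor, and 2 genes of that process are listed. Csa3G731060, described as acyl-coenzyme A oxidase 4, measured 17.6 ± 0.576 in mutant buds against 29.0 ± 5.23 in wild type. Csa3G133140, described as 3-ketoacyl-CoA thiolase 2, measured 2.80 ± 0.567 against 5.84 ± 1.11. Csa3G818260, described as CYP94A1, a fatty acid hydroxylase in vetch, measured 3.36 ± 0.159 against 8.06 ± 1.32. These 3 passed as lower, beside 74.3% of all listed genes. None did after median-of-ratios scaling (0 genes), beside 14.2% of all listed genes.

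Among genes of kinds known to respond to wounding or jasmonate in other plants, all 5 that are listed passed as lower (74.3% of all listed genes), and 4 did so after median-of-ratios scaling (14.2% of all listed genes). Csa6G448740, described as threonine dehydratase, an enzyme of isoleucine synthesis with a jasmonate-induced form in tomato, measured 1.80, 3.46 and 2.97 in the mutant and 14.5, 26.6 and 164 in wild type. It shared the wide wild type spread of the 9S genes, with a difference of 3.41 in log2(value + 1) between wild type libraries 3 and 1, place 25 of the 1589. Csa3G142960, described as a protease inhibitor of bitter gourd, measured 0.422, 0.249 and 0.471 against 15.5, 12.4 and 9.68, and was highest in wild type library 1. Csa1G043200, described as Kunitz trypsin inhibitor 2, measured 6.79 ± 0.561 against 18.8 ± 1.45, and Csa1G710160, described as cysteine proteinase inhibitor 1, measured 5.46 ± 0.647 against 15.1 ± 1.504. Csa7G066240, a further cysteine proteinase inhibitor, measured 1.23 ± 0.372 against 5.38 ± 3.75, with wild type library 3 highest at 9.69. Both patterns seen in the lipoxygenases, an even and an uneven wild type group, occurred within this list.

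**Figure D5:**
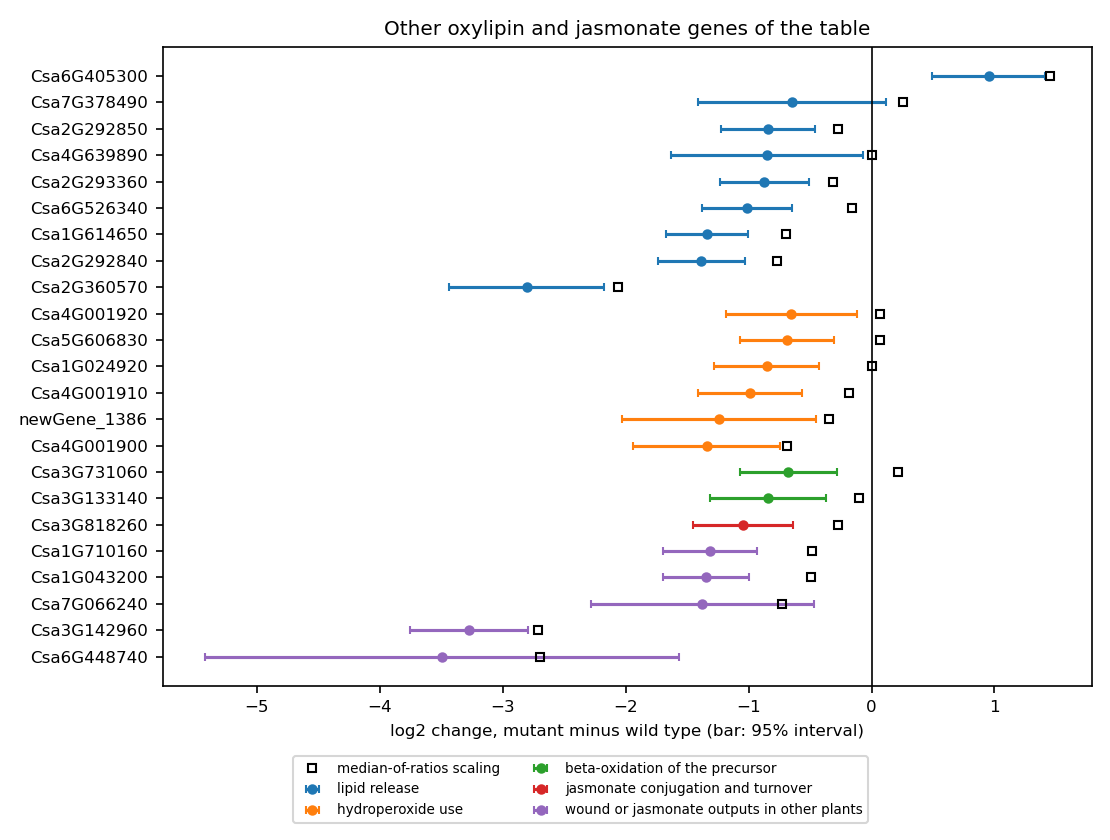
Log2 change, mutant minus wild type, with 95% interval for the 23 other listed genes that matched the oxylipin and jasmonate keywords, coloured by keyword group. Open squares give the value after median-of-ratios scaling. The patatin-like gene Csa6G405300 lies at 0.95 and the others lie below 0 with the deposited values, the lowest at -3.49 (Csa6G448740). After median-of-ratios scaling 6 of those others lie at or above 0.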

How the data were processed

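The deposited values are a normalised expression signal per gene and library whose unit the file headers do not name. Per the file headers the table lists genes that differ between the genotypes, and its FDR (an adjusted p-value) and log2 fold change columns are those of the authors' comparison. The submitters' processing notes name HISAT2, HISAT and DESeq2 and give no role or version for them. Libraries were made from Trizol-extracted RNA, per the labels' protocols. The genome build is not given in the sources used here.

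The comparison of genotypes used limma 3.58.1 (R 4.3.3) and a variance trend, on log2(value + 1) over all 1589 genes, without a filter. The fit was tested on simulated data with the same spread in both genotypes and with low means raised. That test therefore does not cover the uneven 9S genes or genes with low values. Lipoxygenases, pathway genes (7 groups of keywords) and the 5 nearest profiles per class were named by rules chosen with earlier results of these data known. P-values rest on a variance pooled over the 3 libraries of each genotype and moderated over all listed genes. The fit thus assumes the same spread in both genotypes. Over the 9S genes the median range of log2(value + 1) was 0.42 in the mutant libraries and 3.73 in wild type. Their SE, intervals and p-values therefore rest on an assumption that they do not meet.

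The correlations of deviations were -0.09, -0.04 and -0.18 for same-numbered libraries and -0.07 to 0.16 for libraries with different numbers. With 3 libraries per genotype these values cannot decide whether libraries of the same number were paired. Alternatives were scaling, pseudocounts, a filter, no trend, the replicate block, left-out libraries and a threshold of 0.01. Depth is unknown, so no counting interval is given.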

Additional observations from a re-analysis of the deposited data

How the results depend on the processing

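The count of lipoxygenase genes that were lower was 8 with all libraries and 7 to 8 when each library was left out in turn (3 to 4 of the 9S genes and all 4 chloroplast genes). Leaving out a library gave 823 to 1236 lower and 263 to 289 higher genes over the table, 19 to 22 lower and 1 higher in the pathway list, and a difference between the 9S and chloroplast changes of -2.22 to -0.54. Against wild type library 1 alone that difference turned to 0.59. After median-of-ratios scaling, which centres a table of mostly lower genes, 2 of the 9S genes, 7 pathway genes and 225 genes over the table were lower. At an adjusted p of 0.01, 5 lipoxygenase genes (1 of the 9S type), 635 lower and 195 higher genes passed. Median-of-ratios scaling turned the log2 change of 6 pathway genes to 0.00667 (Csa1G024920), 0.21 (Csa3G731060), 0.0681 (Csa4G001920), 0.00257 (Csa4G639890), 0.0701 (Csa5G606830) and 0.25 (Csa7G378490), none with a call.

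The replicate block kept 8 lipoxygenase genes lower and gave 20 lower pathway genes, with 1104 lower genes over the table. Csa4G001920 lost its call under it (limma adjusted p = 0.056). The libraries share only a number. Pseudocounts of 0.1 and 0.5, no variance trend, a mean of at least 1 and members by Swiss-Prot description alone each left 8 lipoxygenase genes lower.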
